A study of Mus musculus with 17 samples.

Results

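The genes of the TNF, TWEAK and NF-kB pathway were followed by symbol through the diaphragm transcriptomes of tumor-bearing mice, and all 10 symbols chosen (Tnf, Tnfrsf1a, Tnfrsf1b, Tnfsf12, Tnfrsf12a, Nfkbia, Nfkb1, Nfkb2, Relb and Birc3) were found among the 47643 genes of the expression table. All 10 were also among the 13305 genes that reached 1 TPM (transcripts scaled per gene length to a fixed total per mouse) in at least 3 mice, the genes that were tested. RNA came from the muscle part of the diaphragm, taken from 17 C57BL/6J males at 4 months of age. The Control group (n = 5) received mock injections, and the Control + rFibcd1 group (n = 5) received rFibcd1, a recombinant fragment of the secreted protein Fibcd1, into the peritoneal cavity. The LLC group (n = 3) had been injected under the skin of both flanks with Lewis lung carcinoma cells, a mouse lung cancer line that forms tumors, and was given mock injections. The LLC + rFibcd1 group (n = 4) carried the same tumors and was given rFibcd1. Each sample is 1 mouse, so the spread within a group is the spread between animals. The tumors grew outside the muscle, and rFibcd1 was given by injection, in addition to any Fibcd1 made by the muscle itself.

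TNF, encoded by Tnf, is a cytokine made mainly by macrophages and lymphocytes, and it acts through a widely expressed receptor (Tnfrsf1a) and a receptor found mostly on immune and endothelial cells (Tnfrsf1b). TWEAK, encoded by Tnfsf12, is a related ligand whose receptor Fn14 (Tnfrsf12a) is induced in damaged or denervated muscle. Both routes lead to NF-kB transcription factors: the canonical arm frees dimers that hold the product of Nfkb1 from the inhibitor IkB alpha (Nfkbia), and the noncanonical arm processes the precursor encoded by Nfkb2, which pairs with RelB (Relb). NF-kB is known to drive protein breakdown in wasting muscle, and also to drive inflammatory genes in immune cells.

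Some members are themselves textbook NF-kB targets, and their promoters are shown for that reason, since 3 of the genes described below (Nfkbia, Nfkb2 and Birc3) are used as readouts of the pathway. RefSeq promoter windows (build GRCm38.p6, 250 bases before to 50 bases after a start site) were at hand for 7 of the 10 members. The 10-base kappa-B consensus, searched on both strands, was matched in windows of 2 of these 7 genes, Nfkbia and Nfkb2, and in windows of 9.55% of all 27025 genes. Counted by window, it was matched in 4 of the members' 9 windows, 3 of them overlapping or neighbouring windows of Nfkb2, and in 8.46% of all 32851. The windows of Tnf, Tnfrsf1a, Tnfrsf1b, Tnfrsf12a and Birc3 held no match to these letters, which says nothing about sites elsewhere. The first sequence is the 250 bases before the Nfkbia start site (chr12:55492648-55492897, minus strand), with the match in capitals, and its first base lies at -29 from the start.
Nfkbia: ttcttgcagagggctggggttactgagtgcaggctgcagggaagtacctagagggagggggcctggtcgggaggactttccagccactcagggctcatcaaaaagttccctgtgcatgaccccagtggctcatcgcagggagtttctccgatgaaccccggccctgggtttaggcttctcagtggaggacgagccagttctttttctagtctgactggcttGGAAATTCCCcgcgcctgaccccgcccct
Nfkb2 had 3 windows, and together they held 5 distinct sites. Of these, 3 lie just before the first start site, and 2 of those overlap. The next pair of sequences, of 30 bases each, shows them in capitals (chr19:46304688-46304717 and chr19:46304716-46304745, plus strand).
Nfkb2, overlapping pair: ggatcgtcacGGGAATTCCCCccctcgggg
Nfkb2, single site: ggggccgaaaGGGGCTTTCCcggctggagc
A match is a description of the letters in the window and no evidence that a factor binds there.

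In the diaphragm of control mice the members differed widely in level, compared here per transcript length as TPM. Nfkbia stood at 45.7 ± 11.5 TPM (SD, n = 5), Tnfrsf1a at 41.1 ± 3.12, Tnfrsf12a at 29.4 ± 7.97, Tnfsf12 at 16.3 ± 1.61, Nfkb2 at 15.8 ± 2.17 and Nfkb1 at 12.48 ± 0.596. Tnfrsf1b followed at 6.46 ± 0.786, Birc3 at 5.02 ± 0.951, Relb at 4.13 ± 0.797 and Tnf at 0.731 ± 0.337 TPM. Neighbours in this order overlapped from mouse to mouse except at 3 steps: Tnfrsf12a lay above Tnfsf12, Nfkb1 above Tnfrsf1b, and Relb above Tnf. The ligand was thus the scarcest member and rested on few reads: about 7 to 107 reads per mouse for Tnf, against 307 or more in every mouse for each of the other 9. These are out of about 50800000 to 54600000 reads per mouse assigned to genes of known length, not all reads of a library. All read numbers were estimated from the TPM steps and gene lengths. The genes lie on separate chromosomes apart from Tnf and Tnfrsf12a, both on chromosome 17, and their positions are given below from GENCODE on build GRCm38.

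**Figure D1:**
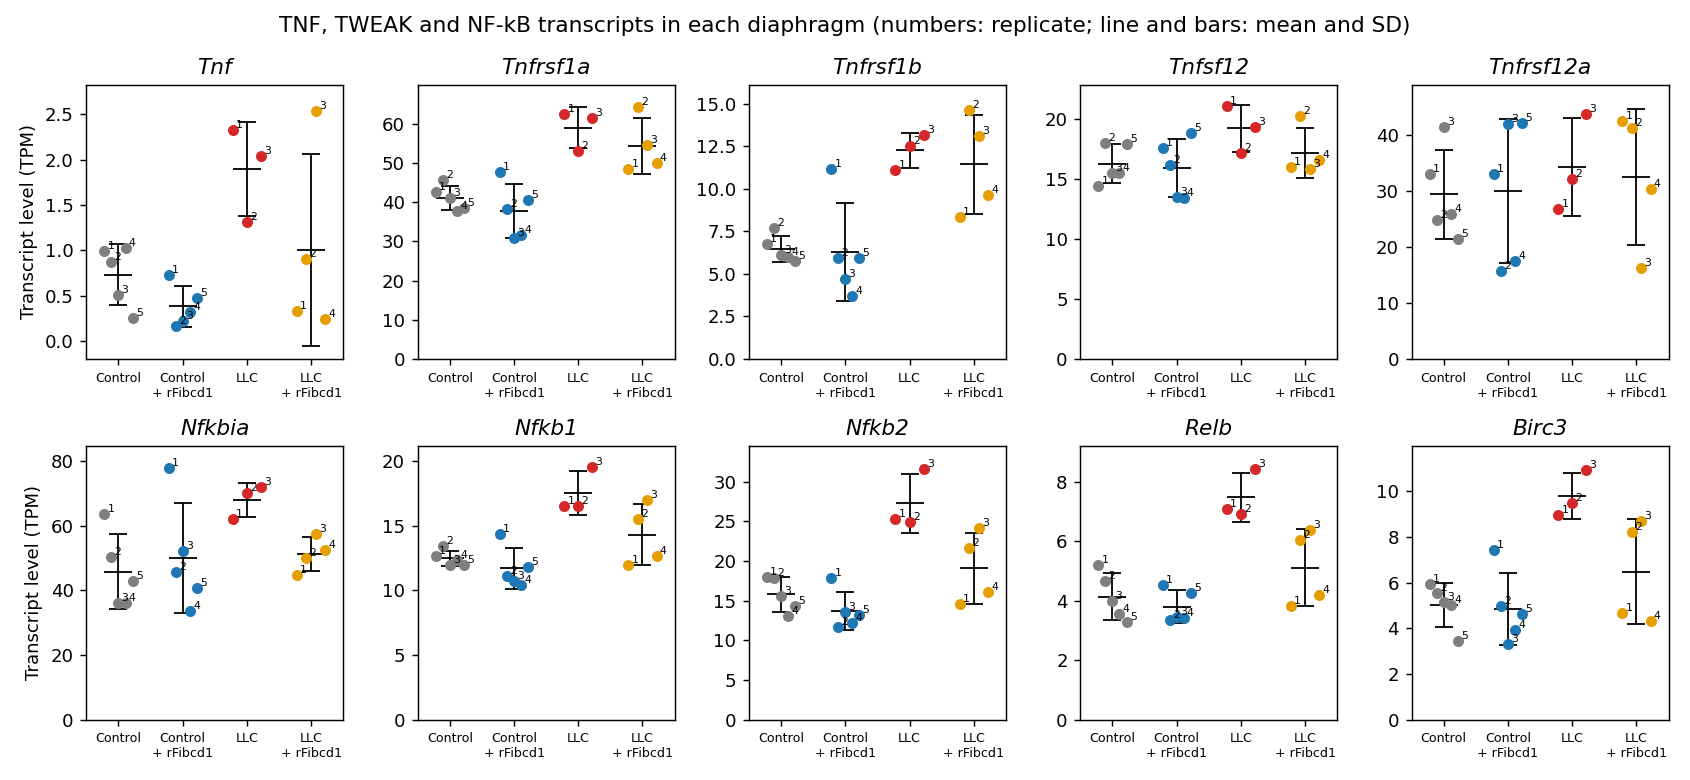
Transcript level (TPM, linear axes) of each of the 10 genes in every mouse, by group. Points are mice, labelled with their replicate number, and the line and bars are the mean and SD. The 3 LLC mice lie above all 5 Control mice for 7 genes, while Tnfsf12 and Tnfrsf12a overlap across groups.

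Facts of the whole series bear on every member. A set of 10 myofiber markers (such as Acta1 and Ckm) was detected in all mice and summed to between 47813 and 62231 TPM, as a muscle sample should. In LLC minus Control 6 of these 10 were lower, and 8 of 8 B cell markers, 8 of 8 T cell markers and 5 of 8 macrophage markers were higher (limma, adjusted p under 0.05). The median of all tested genes was also shifted by 0.16 on the log2 scale in LLC minus Control, against 0.01 with median-ratio scaling, -0.10 with quantile normalization and 0.07 when mitochondrially encoded genes were left out. Of the genes called, 3958 of 4759 were higher in the deposited TPM, 2078 of 3941 with median-ratio scaling and 1510 of 4685 with quantile normalization. For the LLC comparison the members' changes are therefore also given relative to the median gene. In bulk tissue, fewer cells of a type and less RNA per cell cannot be told apart.

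The comparison of LLC with Control asks how a tumor elsewhere in the body is accompanied by changes of the pathway in the diaphragm. Both TNF receptors, the 3 NF-kB subunits among the members, the inhibitor Nfkbia and the target Birc3 were higher in the LLC mice, by 0.46 to 0.85 on the log2(TPM + 1) scale, while the TWEAK ligand and receptor did not pass the test. Thus 7 of 10 members passed an adjusted p of 0.05 (limma, Benjamini-Hochberg over all genes tested), all of them higher, where 35.8% of all genes tested passed and 29.7% passed as higher. The median difference of the 10 members was 0.66, against 0.16 for all genes. Relative to the median gene the 7 called members differed by 0.69 (Birc3), 0.67 (Tnfrsf1b), 0.59 (Nfkb2), 0.57 (Relb), 0.43 (Nfkbia), 0.35 (Tnfrsf1a) and 0.30 (Nfkb1). With median-ratio scaling Nfkb1 moved from 0.46 to 0.28 and Tnfrsf1a from 0.51 to 0.33, and with quantile normalization Nfkb1 moved to 0.24 and Relb from 0.73 to 0.44, all of them still past the threshold. All 3 LLC mice lay above all 5 Control mice for 7 members (Tnf, Tnfrsf1a, Tnfrsf1b, Nfkb1, Nfkb2, Relb and Birc3), which 33.6% of all genes did. These calls needed the third LLC mouse: without it 0 of 10 members passed, with adjusted p from 0.0697 to 0.0839 for the 6 members other than Nfkbia, and only 24 of 13305 genes passed in all. The count was also 0 of 10 by Dunn's test with the same adjustment (7 of 10 at an unadjusted p under 0.05, where 37.5% of all genes were), with the replicate block and with the B cell or macrophage marker level as a covariate, and the covariates lowered the differences, that of Tnfrsf1b from 0.83 to 0.25 (B cell) and 0.21 (macrophage) and that of Tnfrsf1a from 0.51 to 0.23 and 0.19. Over the 7 called members the differences were 0.17 to 0.34 with the B cell and 0.19 to 0.48 with the macrophage covariate.

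**Figure D2:**
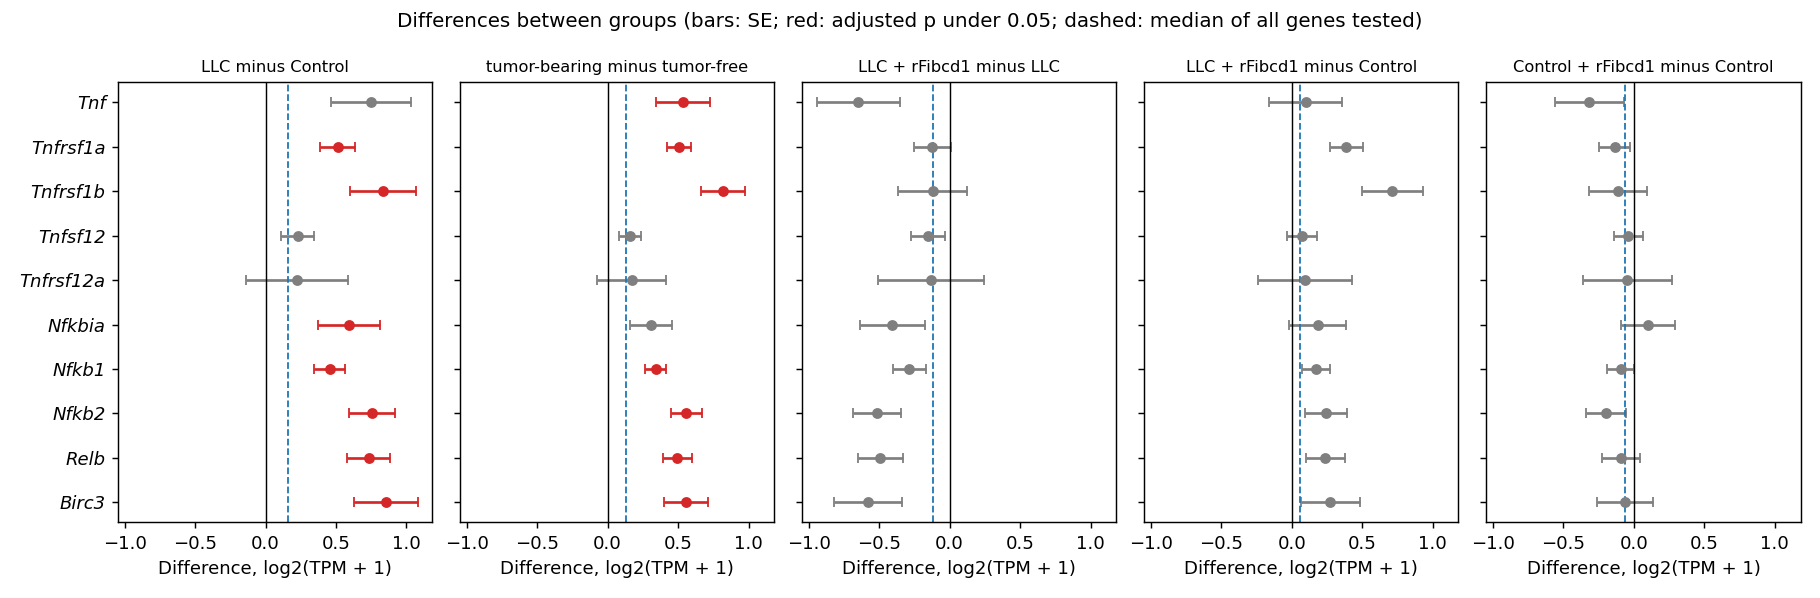
Difference of the 10 genes in 5 comparisons, as log2(TPM + 1), with bars of 1 SE. Red points passed an adjusted p of 0.05, grey points did not, and the dashed line is the median of all genes tested. Of the 10 genes, 7 are red in LLC minus Control and 7 in tumor-bearing minus tumor-free, and none in the other comparisons.

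Of the ligands, Tnf (chr17:35199381-35202007, minus strand) stood at 0.995, 0.871, 0.510, 1.03 and 0.253 TPM in the Control mice and at 2.32, 1.31 and 2.04 in the LLC mice. The Control + rFibcd1 mice had 0.732, 0.168, 0.2198, 0.320 and 0.469 TPM of Tnf, and the LLC + rFibcd1 mice 0.333, 0.901, 2.53 and 0.239. All LLC mice lay above all mice without a tumor, but in the LLC + rFibcd1 group a single mouse, the third, was as high as the LLC mice and the rest fell among the controls. Outside the LLC group, 1 TPM was reached only by the Control mouse at 1.03 and the LLC + rFibcd1 mouse at 2.53. Tnf therefore met the filter of 1 TPM in 3 mice through the LLC mice. The difference between LLC and Control was 0.75 ± 0.28 (SE, log2, limma adjusted p = 0.0506), just short of the threshold, and the exact permutation test over mice gave p = 0.0179, the smallest that 3 against 5 mice allow (two-sided).

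Tnfsf12, the TWEAK ligand (chr11:69686250-69695849, minus strand), was more even. It stood at 14.4, 18.0, 15.5, 15.5 and 18.0 TPM in the Control mice and at 21.1, 17.2 and 19.3 in the LLC mice. It stood at 17.6, 16.1, 13.5, 13.4 and 18.8 TPM in the Control + rFibcd1 mice and at 16.04, 20.2, 15.8 and 16.6 in the LLC + rFibcd1 mice. All 4 groups overlapped, and LLC minus Control was 0.23 ± 0.12 (log2, limma adjusted p = 0.132), or 0.07 relative to the median gene. In the GENCODE annotation, 48.3% of the exonic bases of Tnfsf12 are shared with the read-through gene Tnfsfm13 (up to 8.41 TPM), so how reads were split between them makes its level uncertain.

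Of the receptors, Tnfrsf1a, through which TNF reaches most cell types (chr6:125349362-125362484, plus strand), separated the mice with tumors from those without. It stood at 42.5, 45.5, 41.0, 37.8 and 38.6 TPM in the Control mice and at 47.7, 38.2, 30.7, 31.7 and 40.6 in the Control + rFibcd1 mice. It stood at 62.4, 53.1 and 61.5 TPM in the LLC mice and at 48.5, 64.2, 54.5 and 49.96 in the LLC + rFibcd1 mice. Every tumor-bearing mouse lay above every tumor-free mouse, with or without rFibcd1. LLC minus Control was 0.51 ± 0.13 (log2, limma adjusted p = 0.0128).

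Tnfrsf1b, the receptor mostly of immune and endothelial cells, showed a similar order with 1 exception. The gene lies at chr4:145213463-145246870, minus strand. It stood at 6.74, 7.71, 6.13, 5.99 and 5.75 TPM in the Control mice and at 11.1, 12.52 and 13.1 in the LLC mice. It stood at 11.2, 5.91, 4.68, 3.68 and 5.93 TPM in the Control + rFibcd1 mice and at 8.37, 14.6, 13.1 and 9.64 in the LLC + rFibcd1 mice. The first Control + rFibcd1 mouse alone among tumor-free mice reached the tumor-bearing range. LLC minus Control was 0.83 ± 0.24 (log2, limma adjusted p = 0.0176).

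Tnfrsf12a (Fn14), the TWEAK receptor (chr17:23675445-23677468, minus strand), varied widely between mice of the same group. It stood at 33.1, 24.9, 41.5, 25.97 and 21.4 TPM in the Control mice and at 33.0, 15.7, 41.9, 17.5 and 42.1 in the Control + rFibcd1 mice. It stood at 26.8, 32.1 and 43.8 TPM in the LLC mice and at 42.4, 41.2, 16.3 and 30.3 in the LLC + rFibcd1 mice. Highs and lows occurred in each group, and the coefficient of variation reached 42.7% in Control + rFibcd1. LLC minus Control was 0.23 ± 0.36 (log2, limma adjusted p = 0.645), with a 95% interval from -0.55 to 0.996 that holds both no difference and one as large as that of the TNF receptors.

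Of the NF-kB subunits, Nfkb1, the canonical subunit's precursor (chr3:135584655-135691547, minus strand), stood at 12.7, 13.4, 11.96, 12.4 and 11.99 TPM in the Control mice and at 16.5, 16.6 and 19.5 in the LLC mice. It stood at 14.4, 11.1, 10.7, 10.5 and 11.8 TPM in the Control + rFibcd1 mice and at 11.999, 15.5, 16.995 and 12.7 in the LLC + rFibcd1 mice. It had the smallest spread among Control mice (coefficient of variation 4.78%) and rose by 0.46 ± 0.11 in LLC (log2, limma adjusted p = 0.0120).

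Nfkb2, the noncanonical precursor (chr19:46304320-46312385, plus strand), stood at 18.0, 17.9, 15.6, 13.1 and 14.4 TPM in the Control mice and at 25.3, 24.9 and 31.6 in the LLC mice. It stood at 17.9, 11.7, 13.5, 12.2 and 13.2 TPM in the Control + rFibcd1 mice and at 14.6, 21.6, 24.1 and 16.1 in the LLC + rFibcd1 mice. The LLC + rFibcd1 group was split, with mice 2 and 3 above every tumor-free mouse and mice 1 and 4 inside the Control range. Nfkb2 rose by 0.75 ± 0.16 in LLC (log2, limma adjusted p = 0.0105). On the other strand, exons of AC114539.1 cover 11.6% of its exonic bases and those of Psd, which reached at most 4.15 TPM, cover 6.5%. Whether reads were counted by strand is not settled by the sources used here, so reads of these genes may be part of the Nfkb2 value.

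Relb, the partner of processed Nfkb2 (chr7:19606217-19629438, minus strand), followed the same mice. It stood at 5.20, 4.67, 3.99, 3.54 and 3.27 TPM in the Control mice and at 7.07, 6.91 and 8.42 in the LLC mice. It stood at 4.53, 3.35, 3.46, 3.40 and 4.26 TPM in the Control + rFibcd1 mice and at 3.83, 6.04, 6.38 and 4.18 in the LLC + rFibcd1 mice. Mice 2 and 3 of LLC + rFibcd1 again lay above every tumor-free mouse and mice 1 and 4 within the Control range. Relb rose by 0.73 ± 0.15 in LLC (log2, limma adjusted p = 0.00996), the smallest p of the 10.

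Birc3, an inhibitor of apoptosis that ubiquitinates signaling proteins at TNF receptors and is induced by NF-kB (chr9:7848699-7873186, minus strand), showed the same split. It stood at 5.95, 5.55, 5.16, 5.00 and 3.45 TPM in the Control mice and at 8.94, 9.51 and 10.9 in the LLC mice. It stood at 7.43, 4.98, 3.32, 3.93 and 4.61 TPM in the Control + rFibcd1 mice and at 4.68, 8.23, 8.71 and 4.30 in the LLC + rFibcd1 mice. Birc3 rose by 0.85 ± 0.23 in LLC (log2, limma adjusted p = 0.0150).

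Nfkbia, the inhibitor that NF-kB itself induces (chr12:55489410-55492647, minus strand), stood at 63.6, 50.1, 36.2, 35.9 and 42.9 TPM in the Control mice and at 62.1, 70.2 and 71.8 in the LLC mice. It stood at 77.7, 45.5, 52.2, 33.5 and 40.8 TPM in the Control + rFibcd1 mice and at 44.7, 49.98, 57.3 and 52.5 in the LLC + rFibcd1 mice. The groups overlapped, since the first mouse of Control and of Control + rFibcd1 was as high as the LLC mice. LLC minus Control was 0.59 ± 0.22 (log2, limma adjusted p = 0.0476), a call that passed in 4 of 17 fits with 1 mouse left out and was lost with TPM rescaled by median ratios (0.41), with quantile normalization (0.45) and without mitochondrially encoded genes (0.49).

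When all 7 tumor-bearing mice were compared with all 10 tumor-free mice, the same direction held and the calls no longer rested on 1 LLC mouse. The receptors Tnfrsf1a (0.51 ± 0.09, adjusted p = 0.00120) and Tnfrsf1b (0.82 ± 0.16, adjusted p = 0.00243) had the smallest p values, followed by Nfkb2 (0.56 ± 0.11), Relb (0.50 ± 0.10), Nfkb1 (0.34 ± 0.07), Birc3 (0.55 ± 0.15, adjusted p = 0.0111) and Tnf (0.54 ± 0.19, adjusted p = 0.0333) (limma, log2 ± SE). Again 7 of 10 members passed, all of them higher, where 44.8% of genes tested passed and 38.8% passed as higher. Tnfrsf1a alone of the 10 separated every tumor-bearing from every tumor-free mouse, as 1.74% of all genes did by being higher. Tnfsf12 (0.16 ± 0.08, adjusted p = 0.111), Tnfrsf12a (0.17 ± 0.24, adjusted p = 0.582) and Nfkbia (0.31 ± 0.15, adjusted p = 0.10) did not pass. All calls but that of Tnf held in each of 17 fits with 1 mouse left out, and Tnf was lost without mouse 2, 3 or 4 of Control + rFibcd1 or mouse 1 or 3 of LLC. Tnf passed in 3 of 10 other settings and was lost with a pseudocount of 0.1 and with each of the 3 other scalings. Among these 10, the fit of only the groups compared repeats the main fit here, so its result was fixed. The exact permutation test, also among them, is unadjusted.

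**Figure D3:**
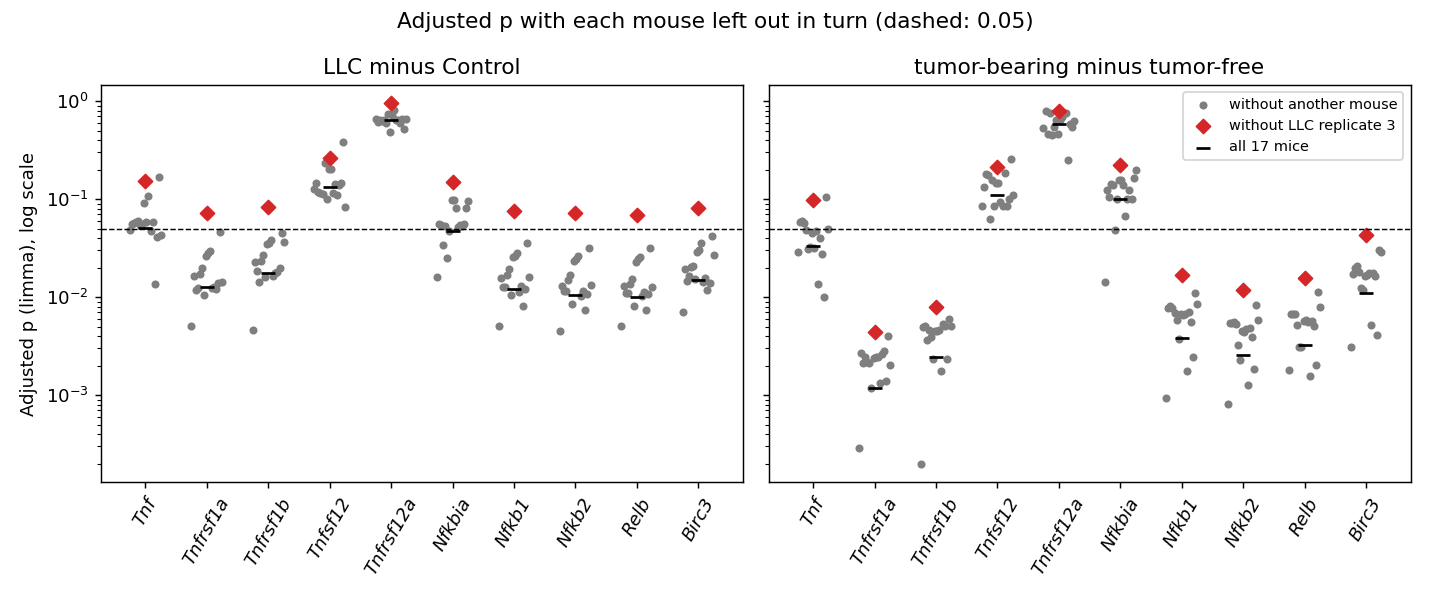
Adjusted p (limma, log axis) of each gene with all 17 mice (black bars) and with each mouse left out in turn (grey points), for LLC minus Control and for tumor-bearing minus tumor-free. Red diamonds leave out LLC replicate 3, and the dashed line is 0.05. In LLC minus Control every diamond lies above the line, while in tumor-bearing minus tumor-free 6 genes stay below it in every fit.

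Treatment of tumor-bearing mice with rFibcd1 asks whether the fragment shifts the pathway back. All 10 members had a lower mean in LLC + rFibcd1 than in LLC, but none passed the test (limma, 0 of 10, with 5 at an unadjusted p under 0.05), where 0.113% of all genes passed and 22.7% had an unadjusted p under 0.05. The differences on the log2(TPM + 1) scale were widest for Tnf (-0.65 ± 0.30, adjusted p = 0.215), Birc3 (-0.58 ± 0.24, adjusted p = 0.205), Nfkb2 (-0.51 ± 0.17, adjusted p = 0.182) and Relb (-0.49 ± 0.16, adjusted p = 0.176). Nfkbia (-0.41 ± 0.23) and Nfkb1 (-0.29 ± 0.11, adjusted p = 0.204) were intermediate. The median of the 10 was -0.35, against -0.11 for all genes. All 4 LLC + rFibcd1 mice lay below all 3 LLC mice for Nfkbia, Nfkb2, Relb and Birc3, a pattern that 9.30% of all genes showed, but each of these except Nfkbia was split between mice 2 and 3, above every tumor-free mouse, and mice 1 and 4, within the Control range.

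In LLC + rFibcd1 minus LLC, Tnfrsf1a differed by -0.12 ± 0.13 (95% interval -0.40 to 0.16) and Tnfrsf1b by -0.12 ± 0.25 (-0.64 to 0.41). The TWEAK genes had values of like size, -0.15 ± 0.12 for Tnfsf12 (-0.41 to 0.10) and -0.13 ± 0.38 for Tnfrsf12a (-0.94 to 0.67). All 4 intervals hold differences of either sign, and whether these members differ from the others was not tested. Relative to the median gene the values of the TNF receptors were -0.01 and -0.0048, and both turned positive under some scalings. Against Control, all 4 LLC + rFibcd1 mice lay above all 5 Control mice for both receptors, and 5.96% of all genes were higher in the same way, without overlap of mice. The differences, 0.39 ± 0.12 for Tnfrsf1a (limma adjusted p = 0.0811) and 0.71 ± 0.22 for Tnfrsf1b (limma adjusted p = 0.0846), did not pass. In that comparison 0 of 10 members passed (2 at an unadjusted p under 0.05), where 3.08% of all genes did and 19.9% had an unadjusted p under 0.05. Without the first Control + rFibcd1 mouse both receptors passed, with adjusted p of 0.0393 and 0.0201. The other 8 members differed by 0.07 to 0.28 from Control and had adjusted p of 0.359 or more. Several of these values rested on single mice: with 1 mouse left out, Tnf ran from -0.22 (without the third LLC + rFibcd1 mouse) to 0.29, Tnfrsf12a from -0.06 to 0.38 and Birc3 from 0.13 to 0.42. Tnf was also below 0 with quantile normalization and with either covariate. LLC minus Control and LLC + rFibcd1 minus LLC share the LLC mice, so their opposite signs are not independent.

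In mice without tumors no member passed the test for rFibcd1. The differences of Control + rFibcd1 minus Control ran from -0.32 (Tnf) to 0.10 (Nfkbia) on the log2 scale with adjusted p of 0.927 or more (limma, 0 of 10, and 0 at an unadjusted p under 0.05, where 0% and 4.39% of all genes did). The signs of several members depended on 1 mouse: Nfkbia fell to -0.07 without the first Control + rFibcd1 mouse, Tnfrsf1b came to 0.03 without the fourth and Birc3 to 0.04 without the third. With 1 mouse left out, Tnfrsf12a ran from -0.19 to 0.15 and Tnfsf12 from -0.10 to 0.02. The interaction, which asks whether rFibcd1 acts differently with and without a tumor, ran from -0.51 (Birc3) to 0.01 (Tnfrsf1a) and passed for 0 of 10 members and for 0% of all genes. At an unadjusted p under 0.05 it passed for 0 of 10 members and for 8.58% of all genes. Its smallest adjusted p was 0.630 for Relb (-0.40 ± 0.21), followed by Nfkbia (-0.51 ± 0.30) and Birc3 (-0.51 ± 0.31).

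Markers of immune cells varied between mice together with some members. Summed over 8 B cell markers (such as Cd79a and Ms4a1, none of them at 0 in every mouse), the level was 267, 234 and 297 TPM in the LLC mice and 80.3, 103, 21.7, 30.4 and 2.62 in the Control mice. In the LLC + rFibcd1 mice it was 19.1, 136, 293 and 23.2 TPM, so that the mice high in Nfkb2, Relb and Birc3 (2 and 3) were the ones high in B cell markers. T cell markers, a sum of 8 genes, gave the same order in that group, at 4.29, 19.8, 61.2 and 5.92 TPM, against 38.9 to 63.7 in LLC and 2.99 to 23.1 in Control. The TWEAK genes did not share this order: mouse 3, with the highest B and T cell sums of the LLC + rFibcd1 group, had its lowest Tnfrsf12a (16.3 TPM) and Tnfsf12 (15.8 TPM).

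A sum of 8 macrophage markers stood at 302 to 637 TPM in Control, at 981 to 1116 in LLC and at 471, 1086, 700 and 438 in the LLC + rFibcd1 mice. In Control + rFibcd1 the first mouse, the one high in Tnfrsf1b, Birc3 and Nfkbia, had 1812 TPM of macrophage markers and 147 of B cell markers, against 238 to 516 and 3.76 to 28.9 in the other 4. The part of these cells in the members' changes was not tested. With the mean B cell marker level as a covariate, 0 of 10 members passed in LLC minus Control, and 1 (Tnfrsf1a, adjusted p = 0.0333) in tumor-bearing minus tumor-free. With the macrophage marker level, these counts were 0 and 2 (Tnfrsf1a, adjusted p = 0.00901, and Tnfrsf1b, adjusted p = 0.0110). Few genes of any kind passed in these fits: 7 of 13305 with the B cell and 4 with the macrophage covariate in LLC minus Control, and 605 (4.55%) and 811 (6.10%) in tumor-bearing minus tumor-free. Since all LLC mice exceeded all Control mice in both marker sums, group and marker level cannot be told apart between these groups.

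**Figure D4:**
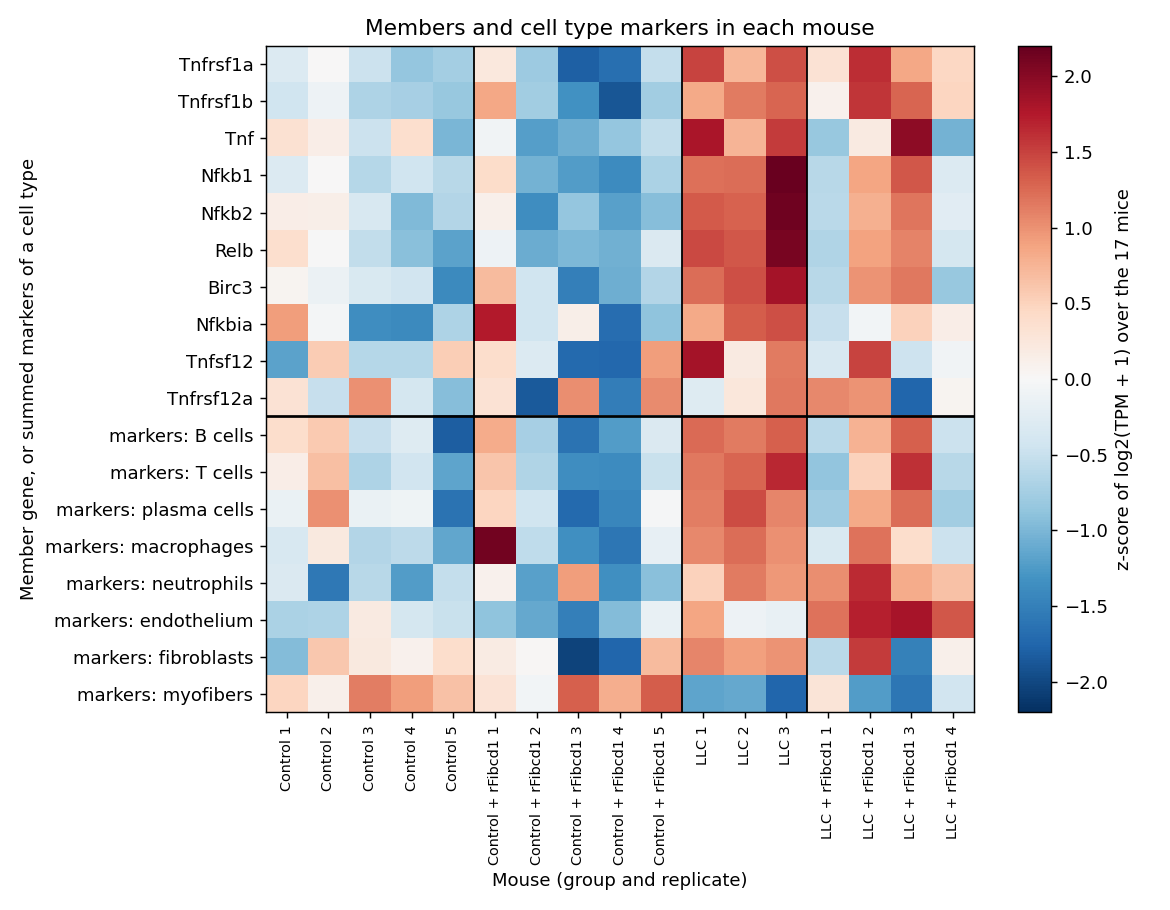
Each row is a member gene (top 10) or the summed markers of a cell type (bottom 8), each column a mouse, and the color is the z-score of log2(TPM + 1) over the 17 mice. Mice 2 and 3 of LLC + rFibcd1 are red for Nfkb1, Nfkb2, Relb and Birc3 and for B cell, T cell and plasma cell markers, while mice 1 and 4 are near the Control mice.

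The members fell into patterns. By the root-mean-square difference of z-scores over the 17 mice, where 0 is identical, the closest pairs of members were Nfkb2 with Relb (0.242), Nfkb1 with Nfkb2 (0.251) and the receptors Tnfrsf1a with Tnfrsf1b (0.311). Tnf was closest to Nfkb1 (0.496), Nfkbia to Nfkb2 (0.715) and Tnfsf12 to Tnfrsf1a (0.691). Tnfrsf12a was unlike every other member, at 1.24 or more. Among all genes tested, the closest to Nfkb1 was Inpp5d (0.134), a phosphatase of blood cells, the closest to Birc3 was Grk6 (0.159), to Tnfrsf1b Prr13 (0.162), to Relb Rab19 (0.187), to Tnfrsf1a Pfkp (0.199), a glycolytic enzyme, and to Nfkb2 Rpl14 (0.229), a ribosomal protein. Tnf was closest to Nlrc5 (0.271), a regulator of MHC class I genes, Tnfsf12 to Dync1i2 (0.347), Nfkbia to Enc1 (0.449) and Tnfrsf12a to Eda2r (0.552), itself a receptor of the TNF family. These are descriptions over 17 mice that differ in tumor, treatment and immune marker level together.

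The rest of the pathway was examined in 8 lists of 119 further genes, of which 95 were tested. In LLC minus Control 59 of the 95 (62.1%) were higher and 1 lower (limma, adjusted p under 0.05), where 29.7% of all genes were higher, with a median difference of 0.47 against 0.16 for all genes. The counts were 41 higher and 2 lower with median-ratio scaling (15.6% of all genes higher) and 36 and 5 with quantile normalization (11.3% of all genes higher). Without LLC mouse 1 they were 32 and 1, where 1773 of 13305 genes were higher. They were 0 without LLC mouse 3, with the B cell or macrophage marker level as a covariate, with the replicate block and by Dunn's test, fits in which at most 24 of 13305 genes passed. The share of all genes, 29.7% higher, also stands behind the count of each list below. In LLC + rFibcd1 minus LLC, in Control + rFibcd1 minus Control and in the interaction 0 of the 95 passed, but 6 were lower in LLC + rFibcd1 minus LLC when the third LLC + rFibcd1 mouse was left out, a fit in which 0.481% of all genes (64) were lower.

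**Figure D5:**
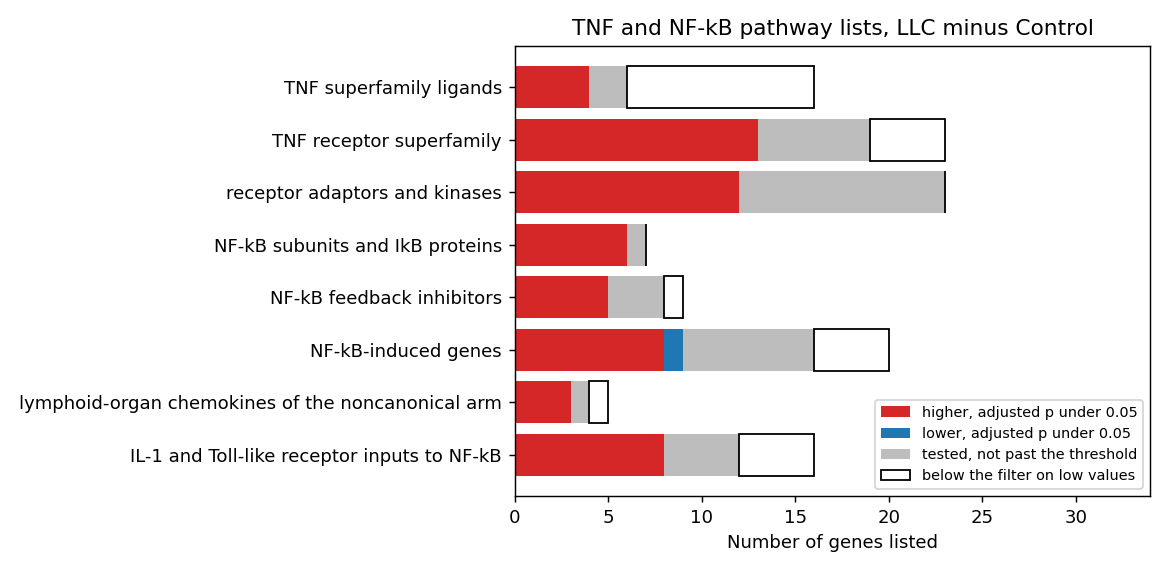
Number of genes in each pathway list that were higher (red), lower (blue) or not past an adjusted p of 0.05 (grey) in LLC minus Control, and the number below the filter on low values (white). Higher genes make up 59 of the 95 tested, and Sod2 is the single lower one.

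Among other TNF superfamily ligands 4 of 6 tested genes were higher and none lower, while 10 of the 16 listed were below the filter on low values. The filter can be met by the 3 LLC mice alone, so genes high only there are tested. Lta, for example, reached at most 1.004 TPM in Control and 0.718 in Control + rFibcd1, against 2.16 to 3.62 in LLC. Without the filter 9 of 16 of these ligands were higher, where 18.3% of all genes were. Ltb, a lymphotoxin chain of lymphocytes that signals to noncanonical NF-kB, averaged 25.9 TPM in the 3 LLC mice (SD 4.4004) and 5.36 TPM in the 5 Control mice (SD 5.19), a difference of 2.51 ± 0.86. Lta, the other lymphotoxin chain, differed by 1.42 ± 0.35 and Tnfsf13, a B cell and plasma cell survival factor, by 0.89 ± 0.27. The value of Tnfsf13 is uncertain, since Tnfsfm13 shares 983 of its exonic bases and, at group means of 6.28 to 7.08 TPM, exceeded its 2.89 to 6.12 TPM. Of the receptors, 13 of 19 tested were higher. Those with the largest change are receptors of B lineage cells: Tnfrsf13c (2.31 ± 0.72), Tnfrsf13b (1.90 ± 0.56) and Tnfrsf17 (1.11 ± 0.32), the last of which also belongs to the plasma cell marker list.

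Of the adaptors and kinases that receptors recruit, 12 of 23 were higher, led by Traf1 (1.28 ± 0.35), Casp8 (0.98 ± 0.21), the initiator caspase of death receptors, and Traf4 (0.79 ± 0.28). Under quantile normalization 5 were higher and 2 lower. Of the other NF-kB subunits and IkB proteins 6 of 7 were higher, with Nfkbie (1.41 ± 0.42), Nfkbid (1.21 ± 0.38) and Bcl3 (1.12 ± 0.29) leading. Of the feedback inhibitors 5 of 8 were higher, among them Tnip2 (0.59 ± 0.12), Tnfaip3 (0.58 ± 0.21), the deubiquitinase A20, and the RNase Zc3h12a (0.51 ± 0.17), but 1 of 8 was higher after median-ratio scaling.

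Of the genes that NF-kB induces in many cells, 8 of 16 were higher and 1 lower. Ccl5, a chemokine of T cells, differed by 2.17 ± 0.60, Bcl2a1b, a survival gene of blood cells, by 1.80 ± 0.54 and Il1b by 1.36 ± 0.27. Sod2, the mitochondrial superoxide dismutase, which muscle expresses strongly, was the lower one, at 173 ± 11.4 TPM in LLC and 209 ± 10.9 in Control (-0.27 ± 0.05). Of the chemokines of lymphoid organs that depend on the noncanonical arm, 3 of 4 were higher: Cxcl13, which attracts B cells (3.06 ± 1.11), Ccl19 (1.05 ± 0.33) and Cxcl12 (0.45 ± 0.13). Of the IL-1 and Toll-like receptor inputs 8 of 12 were higher, led by Tlr9 (1.503 ± 0.33), Cd14 (0.97 ± 0.31) and Tlr2 (0.83 ± 0.22), which are expressed in B cells or myeloid cells. With median-ratio scaling the higher genes numbered 4 of 7 subunits and IkB proteins and 1 of 4 chemokines, and with quantile normalization 7 of 19 receptors.

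In LLC + rFibcd1 minus Control, 4 of the 95 list genes passed (4.21%), a share near the 3.08% of all genes: Il1b (1.45 ± 0.25, adjusted p = 0.00614), Cxcl12 (0.82 ± 0.12, adjusted p = 0.00317) and Irak3, an inhibitor of Toll-like receptor signaling (0.40 ± 0.10, adjusted p = 0.0430), were higher, and Sod2 (-0.18 ± 0.04, adjusted p = 0.0432) was lower (limma, log2 ± SE). Il1b and Cxcl12 passed in all 17 fits with 1 mouse left out, while Irak3 passed in 4 of them and Sod2 in 6. Of 10 other settings, Il1b and Cxcl12 passed in 9, Irak3 in 6 and Sod2 in 2, with Sod2 not passing, among others, with median-ratio scaling or when only the groups compared were fitted. Il1b stood at 2.53 ± 1.22 TPM in LLC and 2.74 ± 1.21 in LLC + rFibcd1, against 0.331 ± 0.182 in Control. Cxcl12 stood at 62.2 ± 4.41 TPM in LLC and 82.0 ± 16.6 in LLC + rFibcd1, against 45.4 ± 3.03 in Control. The difference of these genes between LLC + rFibcd1 and LLC did not pass, with adjusted p of 0.837 for Il1b and 0.192 for Cxcl12 (limma).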

How the data were processed

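The authors deposited 1 table of TPM (transcript levels scaled per gene length to a fixed total) for the 17 samples, made per the study's methods from trimmed paired reads aligned to the mouse genome (mm10) with CLC Genomics Workbench. Each of the 17 columns was matched to a sample by its title, and 0 were left unassigned. The members and gene lists were chosen with earlier results of these data known. From the deposited TPM, log2(TPM + 1) was fitted for the 13305 genes that reached 1 TPM in 3 or more mice, with limma 3.58.1 in R 4.3.3: 4 groups, 13 residual degrees of freedom, trended moderation, Benjamini-Hochberg adjustment over all genes tested and a threshold of 0.05. A log2 difference with a pseudocount of 1 understates changes of low genes such as Tnf. All 10 members are named. Of each list, at most the 3 passing genes with the largest change in LLC minus Control are named, and any that passed in a comparison with rFibcd1. Exact permutation tests over mice were two-sided. Reads per gene were estimated from the whole-number steps of TPM with GENCODE M21 exon lengths, for which 80.4% to 83.2% of low values fell within 0.02 of a whole read. The study compared groups by Kruskal-Wallis and Dunn's tests and called genes by a p, with no adjustment stated, and a cutoff on the log2 ratio. Dunn's test was used here as an alternative with Benjamini-Hochberg adjustment and no such cutoff, so its counts do not follow the study's rule. Other alternatives were other pseudocounts, filters, scalings, covariates, a replicate block and leaving out each mouse.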

Additional observations from a re-analysis of the deposited data

Results flagged for a closer look

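No member gene had a mouse far from the rest of its group by Dixon's test, which was applied to groups of 4 and 5 mice. Of 63 groups of values tested, chance flags about 1 in 20, and 6 sums of marker genes were marked. In Control + rFibcd1 the first mouse stood apart from the other 4 in summed macrophage markers (1812 TPM), B cell markers (147 TPM), T cell markers (22.0 TPM) and adipocyte markers (1796 TPM), and it was also the highest of its group for Tnf, Tnfrsf1a, Tnfrsf1b, Nfkbia, Nfkb1, Nfkb2, Relb and Birc3. In Control the second mouse stood apart in plasma cell markers (279 TPM) and mesothelium markers (151 TPM). The part of these cells in the members' values was not tested.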

How the results depend on the processing

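The number of members that passed in LLC minus Control (7) became 0 with the replicate block, with the B cell or the macrophage marker level as a covariate and by Dunn's test. With 1 mouse left out it ran from 0 to 8, where 24 to 5254 of 13305 genes passed. In tumor-bearing minus tumor-free (7) it became 1 with the B cell covariate (4.55% of all genes passed), 2 with the macrophage covariate (6.10%) and 5 with the replicate block (28.4%). In LLC + rFibcd1 minus LLC (0) it was 1 by the exact permutation test, unadjusted (Nfkbia, p = 0.0286), the smallest p that 3 against 4 mice allow. That test was run for the members alone, so no share of all genes stands beside it. By separation of mice, 9.30% of all genes lay wholly lower in this comparison. In LLC + rFibcd1 minus Control (0) the number was 1 with median-ratio scaling (2.68% of all genes passed), with quantile normalization (2.75%) and with the B cell covariate (2.87%). It was 2 with the macrophage covariate (2.59%) and by the exact permutation test, unadjusted and run for the members alone. With 1 mouse left out it ran from 0 to 2, where 167 to 597 of 13305 genes passed. In LLC + rFibcd1 minus LLC, Tnfrsf1a changed sign to 0.00016 after median-ratio scaling, 0.072 with the B cell and 0.064 with the macrophage covariate, and Tnfrsf1b to 0.054 after quantile normalization, 0.28 and 0.25. With 1 mouse left out, Tnfrsf1b ran from -0.24 to 0.0066 and Tnfrsf12a from -0.29 to 0.16. The labels do not say whether replicate numbers pair the mice. Deviations of same-numbered mice had correlations from -0.46 to 0.49 over 22 pairs (median -0.06). Those of differently numbered mice ran from -0.65 to 0.75 over 85 pairs (median -0.03), which does not settle the question. Over all 13305 genes, 5 passed in LLC minus Control with the replicate block, 7 and 4 with the covariates and 0 by Dunn's test (4993 unadjusted). In tumor-bearing minus tumor-free, Nfkb1, Nfkb2 and Relb passed in 8 of 10 settings other than leaving out a mouse, Birc3 in 7 and Tnf in 3. These settings hold the fit of only the groups compared, which repeats the main fit in this comparison, and the unadjusted exact permutation test. The reason for these changes was not tested. Tnf, with as few as 7 reads in a mouse, is the member that depth limits most.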

Other observations

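Neutrophil markers, summed over 7 genes, stood at 1.95 to 14.5 TPM in Control, 45.2 to 107 in LLC and 55.2 to 207 in LLC + rFibcd1, and 5 of 5 tested were higher than in Control in both tumor-bearing groups (limma, adjusted p under 0.05). B cell and T cell markers passed for 8 of 8 genes each in LLC minus Control and for 0 of 8 each in LLC + rFibcd1 minus Control, and in LLC + rFibcd1 minus LLC none of the neutrophil, B cell or T cell markers passed. Whether neutrophil and lymphocyte markers differ in their response was not tested. Endothelial markers, such as Pecam1 and Cdh5, summed to 234 to 260 TPM in Control, 248.99 to 281 in LLC and 292 to 314 in LLC + rFibcd1. Against Control, 2 of 8 were higher in LLC, where 29.7% of all genes were, and 3 of 8 in LLC + rFibcd1, where 2.07% were, and 0 of 8 passed between LLC + rFibcd1 and LLC.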
